A study of Mus musculus with 8 samples.

Results

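Integrins and the molecules that guide leukocytes to the bone marrow were examined in mouse acute myeloid leukemia (AML) cells. The 9 genes were taken by name from the count table of the study. They encode the integrin subunits Itga4, Itga5, Itgal, Itgam, Itgb1 and Itgb2, the selectin ligand Selplg, the hyaluronan receptor Cd44 and the integrin ligand Icam1. All 9 had a row among the 12823 rows of the table, and all 9 passed the filter on low counts. MLL-AF9 is a fusion gene that turns mouse bone marrow progenitors into leukemia cells, and here it was introduced together with GFP by transduction.

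For new AML, 4 libraries were made from newly generated MLL-AF9 cells, which arose after transduced progenitors were given to sublethally irradiated mice. For aggressive AML, 4 libraries were made from MLL-AF9 cells described as the same leukemia after 5 serial transplantations. By the methods of the study, the mice used for these transplantations were not irradiated. Cells of both groups were carried in C57BL/6 mice and sorted as GFP+ cells from bone marrow. The study worked with mice of 8 to 12 weeks of age and describes these RNA samples as coming from male mice, 4 per group. The labels number the libraries as biological replicates, and the p-values measure the spread between these libraries. The labels do not say how many independent transductions stand behind a group. They name no sequencing batch, and a batch that followed the group and the group itself could not be separated. Transcripts from 4 Y-linked genes summed to between 2315 and 2574 counts per new AML library and to 0 counts in every aggressive AML library. The description of the aggressive cells as the same leukemia at a later passage does not say why these counts differ, and the cause was not tested. In every fold change below, serial transplantation and a difference in the origin of the leukemia cells cannot be told apart.

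An integrin is a pair of an alpha and a beta subunit in the cell membrane. The beta2 family of leukocytes joins Itgb2 with Itgal to form LFA-1, or with Itgam to form Mac-1, and binds ICAM proteins on other cells. The beta1 integrins VLA-4 (Itga4 with Itgb1) and VLA-5 (Itga5 with Itgb1) hold blood progenitors in the marrow by binding VCAM-1 and fibronectin. Selectins on blood vessels catch cells that carry sugar-decorated Selplg (PSGL-1) or Cd44, and this rolling comes before firm integrin adhesion.

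Promoter sequence is shown for the member with the largest fall, Itgam, and for Icam1, the member that serves as an integrin ligand. Windows of 250 bases before the RefSeq gene start in GRCm38.p6 (for Cd44, reaching slightly past it) were found for 6 of the 9 members. Itgal, Itgb2 and Selplg had none. Both windows lie on the plus strand, Itgam at chr7:128062390-128062639 and Icam1 at chr9:21015690-21015939. Capitals mark GAGGAA on either strand (read as TTCCTC on the other), the core of sites bound by the myeloid factor PU.1, and TTCNNNGAA, the core of sites bound by STAT factors.
Itgam: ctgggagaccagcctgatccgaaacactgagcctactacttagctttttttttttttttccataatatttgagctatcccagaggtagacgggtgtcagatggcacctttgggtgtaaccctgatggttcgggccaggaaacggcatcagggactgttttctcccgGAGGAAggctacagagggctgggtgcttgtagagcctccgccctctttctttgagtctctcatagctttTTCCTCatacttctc
Icam1: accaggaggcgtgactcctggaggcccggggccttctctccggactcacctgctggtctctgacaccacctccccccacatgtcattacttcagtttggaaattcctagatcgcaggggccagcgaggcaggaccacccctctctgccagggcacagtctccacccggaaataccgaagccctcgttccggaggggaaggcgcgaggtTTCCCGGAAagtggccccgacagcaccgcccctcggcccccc

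The Itgam window holds GAGGAA at 2 places, which begin 84 and 15 bases before the gene start. The Cd44 window also holds it at 2 places, 243 and 220 bases before the end of the window, which reaches slightly into the gene. The windows of Itga5 (127 bases before the start) and Itgb1 (9 bases) hold it at 1 place each. It is not among the letters of the Itga4 or Icam1 windows. Of 32851 RefSeq windows of this length, 23.3% hold GAGGAA. Among the 6 members with a window, only the Icam1 window holds TTCNNNGAA, which begins 42 bases before the start and is found in 7.02% of all windows. The 2 motifs do not overlap in these windows, and a match of letters is a description of the sequence, not of binding.

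Of the 9 members, 2 were lower in aggressive AML and 0 were higher. The call rests on edgeR over 12494 genes, with an adjusted p under 0.05. Itgal and Itgam were the members called. In the same test 18.4% of all genes were called, 10.2% as lower and 8.15% as higher. The log2 fold change of aggressive AML over new AML was below 0 in 7 members and above 0 in 2. Its median was -0.22, against 0.00 over all tested genes. In 3 members, Itgal, Itgam and Selplg, no new AML library fell within the range of aggressive AML, as in 21.8% of all tested genes. Total counts were 8421384 to 9697777 per new AML library and 7805544 to 8704918 per aggressive AML library. The level of a gene is given in CPM (counts scaled by the total of each library, adjusted by TMM scaling). Genes of different length cannot be compared with each other in this unit. Because the RNA came from a sorted population, fewer cells that express a gene and less RNA per cell cannot be told apart.

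**Figure D1:**
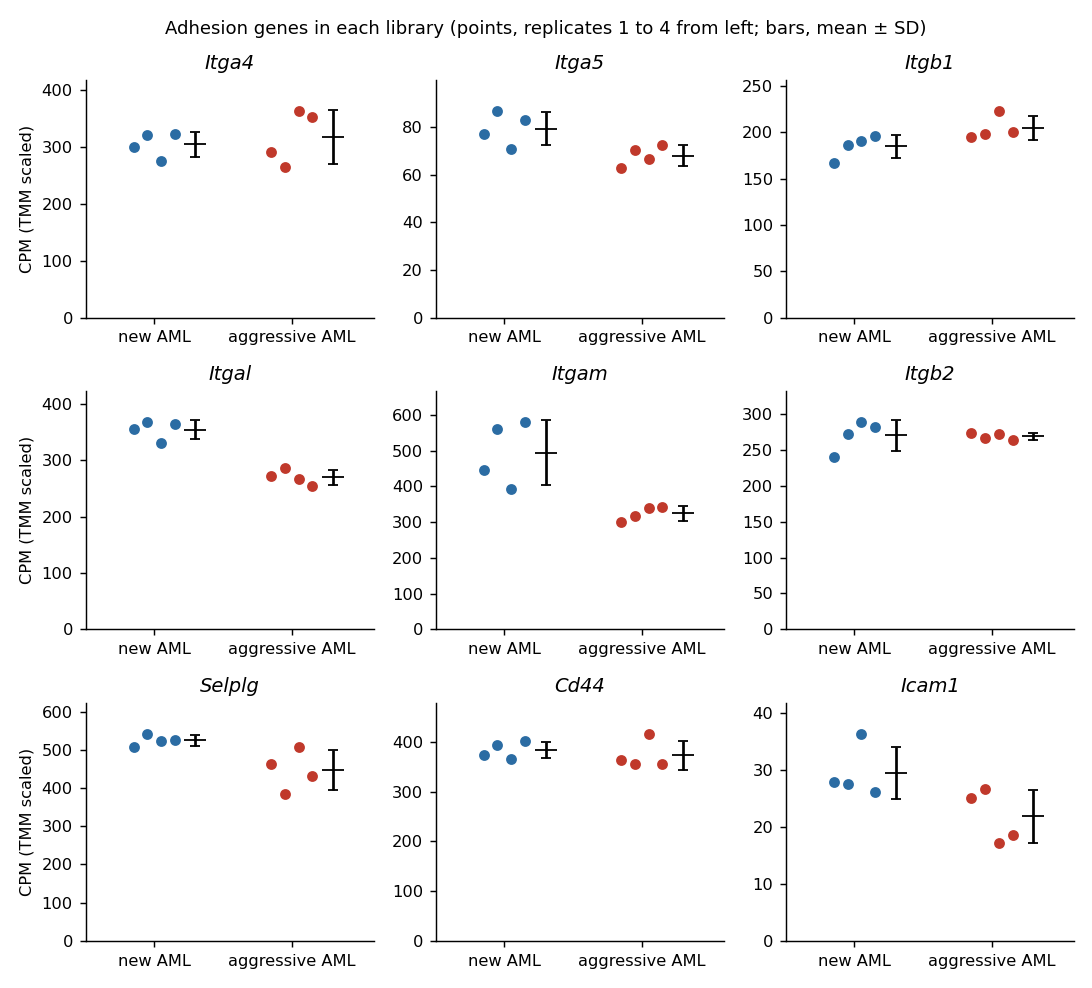
CPM (vertical axis, from 0) of the 9 members in each of the 8 libraries, with 1 point per library and bars for the group mean and SD, new AML beside aggressive AML. Itgal and Itgam lie lower in all 4 aggressive AML libraries, and the Itgb2 and Cd44 values of the groups overlap.

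Itgam encodes CD11b, the alpha subunit of Mac-1, and marks maturing myeloid cells. Its level was 445, 562, 393 and 579 CPM in new AML replicates 1 to 4, and 299, 317, 340.0 and 341 CPM in aggressive AML replicates 1 to 4. Every new AML library lay above every aggressive AML library, and new AML replicates 2 and 4 were the highest. The mean was 495 ± 90.3 CPM (SD, n = 4) in the former and 324 ± 20.3 CPM (SD, n = 4) in the latter, for a log2 fold change of -0.61 (SE 0.11, 95% interval -0.84 to -0.38, edgeR adjusted p = 0.00122). The gene lies at chr7:128062640-128118491 on the plus strand, and the reference annotation places Gm49368, which has no row in the table, on shared exons of the same strand.

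Itgal encodes CD11a, the alpha subunit of LFA-1. It had 355, 367, 331 and 364 CPM in the new AML libraries against 272, 286, 267 and 254 CPM in the aggressive AML libraries. The groups were apart by more than the range within either of them. The aggressive AML mean of 269.9 ± 13.2 CPM was 76.1% of the new AML mean of 355 ± 16.2 CPM, a log2 fold change of -0.39 (SE 0.07, 95% interval -0.54 to -0.25, edgeR adjusted p = 0.00106), the smallest adjusted p among the 9 members. Both Itgal and Itgam were called lower in all 13 other fits, with adjusted p-values of at most 0.00679 for Itgal and 0.00646 for Itgam over edgeR, DESeq2 and limma.

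Itgb2 encodes CD18, the beta subunit that Itgal and Itgam share. The new AML libraries had 239.9, 272, 288 and 281 CPM, and the aggressive AML libraries had 274, 267, 272 and 263 CPM. The aggressive AML libraries lay inside the new AML range. Its log2 fold change was -0.01 (95% interval -0.16 to 0.15, edgeR adjusted p = 0.958), and the sign turned without new AML replicate 3 (0.024), without new AML replicate 4 (0.012) or without aggressive AML replicate 4 (0.010). The lower end of that interval, -0.16, lay above the upper ends for Itgal and Itgam, -0.25 and -0.38.

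The remaining partners of Itgb2 were lower as well. Itgax, which encodes CD11c of dendritic cells and monocytes, had 33.6, 44.1, 33.4 and 49.7 CPM in new AML and 9.28, 9.31, 12.8 and 11.3 CPM in aggressive AML. The 4 aggressive AML values were far under the lowest new AML value. Its log2 fold change was -1.91 (SE 0.16, edgeR adjusted p = 1.31e-06). Itgad, which encodes CD11d of tissue macrophages, had only 2.80 ± 0.961 CPM in new AML and 1.14 ± 0.386 CPM in aggressive AML, and its groups overlapped. Its log2 fold change of -1.29 (edgeR adjusted p = 0.0252) missed the threshold in 6 of the 8 fits that left out 1 library, those without new AML replicate 1, 2 or 4 or without aggressive AML replicate 1, 3 or 4, with adjusted p between 0.0506 and 0.0786. Exons of Itgad overlap 4 other annotated genes, and the alpha subunits Itgam, Itgax and Itgad are similar in sequence, so reads shared between them are uncertain.

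To set the alpha subunits against their common partner, levels were divided by exon length (RPKM). The RPKM of Itgal, Itgam, Itgax and Itgad was summed in each library and divided by that of Itgb2, a ratio chosen after the values had been seen. On the log2 scale this ratio was 0.93, 1.00, 0.53 and 0.98 in new AML replicates 1 to 4. It was 0.20, 0.31, 0.32 and 0.34 in aggressive AML replicates 1 to 4. All 4 aggressive AML libraries thus lay under the lowest new AML library, replicate 3. The mean log2 ratio went from 0.86 ± 0.22 to 0.29 ± 0.06. Averaged without the log, the ratio was 1.83 units of alpha subunit RNA per unit of Itgb2 RNA in new AML and 1.22 in aggressive AML. For Itgam to Itgal, the log2 ratio averaged 0.84 ± 0.21 across new AML and 0.64 ± 0.14 across aggressive AML, with overlap.

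**Figure D2:**
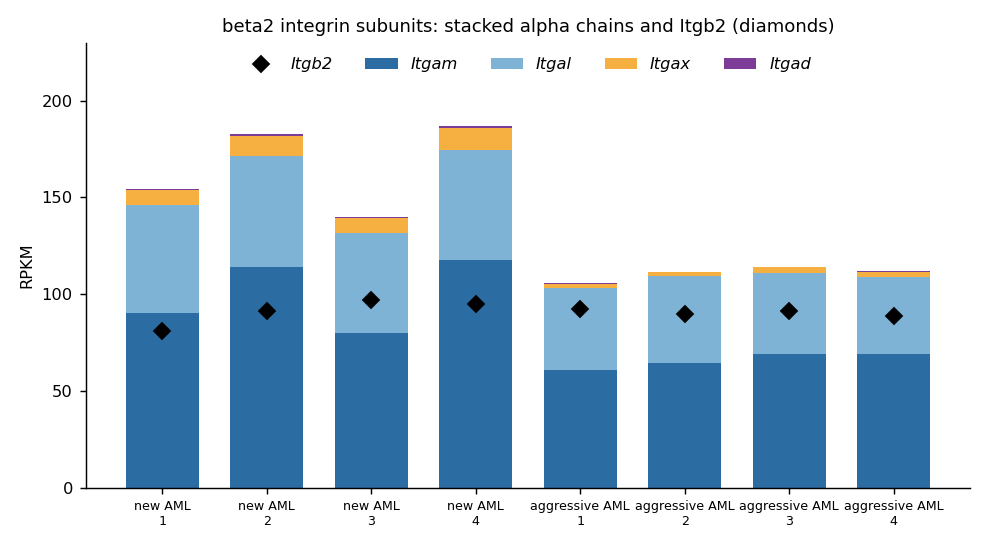
RPKM (reads per length of exon and TMM-scaled library total) in each of the 8 libraries. Itgam, Itgal, Itgax and Itgad are stacked as bars from 0, and Itgb2 is a diamond. The diamonds stay between 80.8 and 97.1 RPKM while the stacks are shorter in aggressive AML, where Itgam is at most 69.3 RPKM.

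The 4 alpha genes stand close together on chromosome 7. Itgax starts 66.9 kb, Itgad 111.3 kb and Itgal 766.5 kb from the start of Itgam. The stretch from the start of Itgal to the end of Itgad, chr7:127296139-128205504 (GRCm38.p6), was chosen after the values had been seen and holds 36 tested genes. All 4 of the alpha genes were called lower. Of the other 32 tested genes, 3 (9.38%) were called lower, 2 were called higher and 27 were not called, with a median log2 fold change of -0.14. Phkg2 was among the genes called higher, with a log2 fold change of 0.36 (edgeR adjusted p = 0.0314). Those called lower were E430018J23Rik, Fbrs and Fbxl19. The neighbours of the alpha genes were therefore called lower at a share near that of all tested genes.

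**Figure D3:**
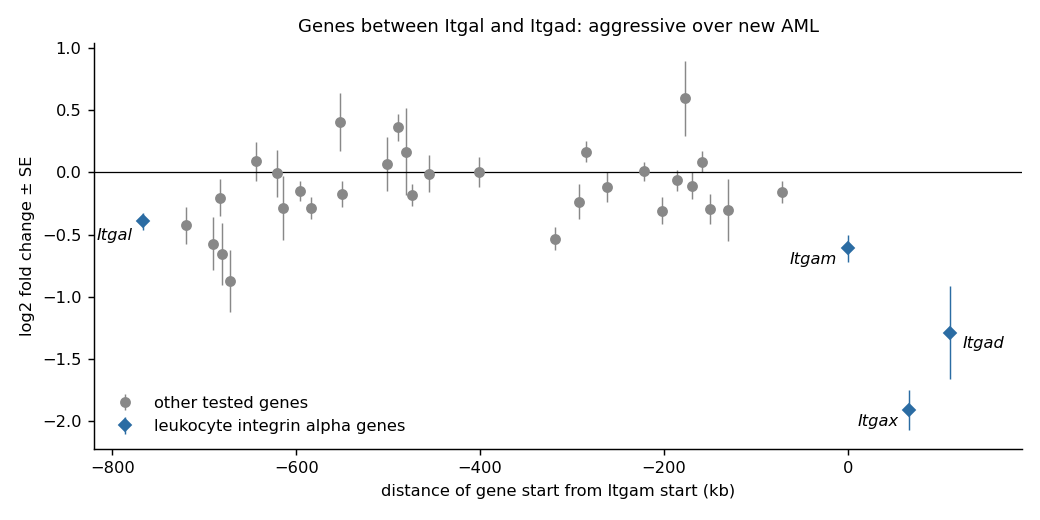
Log2 fold change (aggressive over new AML, error bars SE) of 35 of the 36 tested genes between Itgal and Itgad, against the distance of their starts from that of Itgam in kb. The 4 leukocyte integrin alpha genes lie at -0.39, -0.61, -1.91 and -1.29, and 27 of the other 32 genes were not called.

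The beta1 integrins did not pass the test. Itga4, the alpha subunit of VLA-4, had 300.5, 320.4, 275 and 322 CPM in the new AML libraries. The aggressive AML libraries had 291, 264, 363 and 352 CPM, so that they held both the lowest and the highest value. Its log2 fold change was 0.06 (95% interval -0.15 to 0.27, edgeR adjusted p = 0.708), and it was -0.0060 without aggressive AML replicate 3. Exons of Itga4 (chr2:79255426-79333114) overlap Cerkl on the opposite strand.

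Itga5, the alpha subunit of the fibronectin receptor VLA-5, had 76.9, 86.8, 71.0 and 82.8 CPM in new AML and 62.7, 70.5, 66.6 and 72.4 CPM in aggressive AML. The groups overlapped by 1 library on each side, since aggressive AML replicate 4 lay above new AML replicate 3. The edgeR fit gave a log2 fold change of -0.22 (95% interval -0.41 to -0.03). Its adjusted p was 0.0931. Without new AML replicate 3 the edgeR adjusted p was 0.0460.

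Itgb1, the beta subunit common to VLA-4 and VLA-5, had 167, 186, 191 and 196 CPM in new AML and 195, 198, 223 and 201 CPM in aggressive AML. The aggressive AML values were mostly higher, but replicate 1 of that group lay just under new AML replicate 4. Itgb1 had a log2 fold change of 0.14 (95% interval -0.02 to 0.31, edgeR adjusted p = 0.210). On the RPKM scale Itga4 over Itga5 gave log2 ratios of 0.78 ± 0.04 across new AML and 1.06 ± 0.23 across aggressive AML, with overlap. Itgb2 over Itgb1 gave 0.91 ± 0.03 and 0.76 ± 0.09, without overlap.

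Itga4 also pairs with Itgb7, which makes a receptor for the gut addressin MAdCAM-1. Itgb7 had 332, 309, 282 and 260.1 CPM in new AML and 191, 226, 242 and 201 CPM in aggressive AML. The groups did not overlap, and the log2 fold change was -0.46 (SE 0.09, edgeR adjusted p = 0.00309). The log2 fold changes of the beta partners of Itga4 were thus 0.14 for Itgb1 and -0.46 for Itgb7, and their intervals (-0.02 to 0.31 and -0.66 to -0.26) did not overlap.

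Of 20 further integrin subunits, 11 were tested, and 5 were called lower and 0 higher (against 10.2% and 8.15% of all tested genes). Without the filter on low counts 5 were called lower and 1 higher, and without new AML replicate 4 the counts were 4 and 1. The median log2 fold change of the 11 was -0.46. Besides Itgax, Itgad and Itgb7, the called genes were Itgb5, a partner of the alpha-v subunit, and Itga10, a collagen receptor subunit. Itgb5 went from 114 ± 14.5 to 62.4 ± 3.34 CPM (log2 fold change -0.87, edgeR adjusted p = 2.28e-05). Itga10 went from 7.82 ± 1.49 to 3.90 ± 0.921 CPM (log2 fold change -0.99, edgeR adjusted p = 0.00774). Itga6, a laminin receptor subunit and the gene of this list with the highest CPM over all 8 libraries, was not called, with 264.8 ± 25.3 CPM in new AML and 277 ± 21.1 CPM in aggressive AML.

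**Figure D4:**
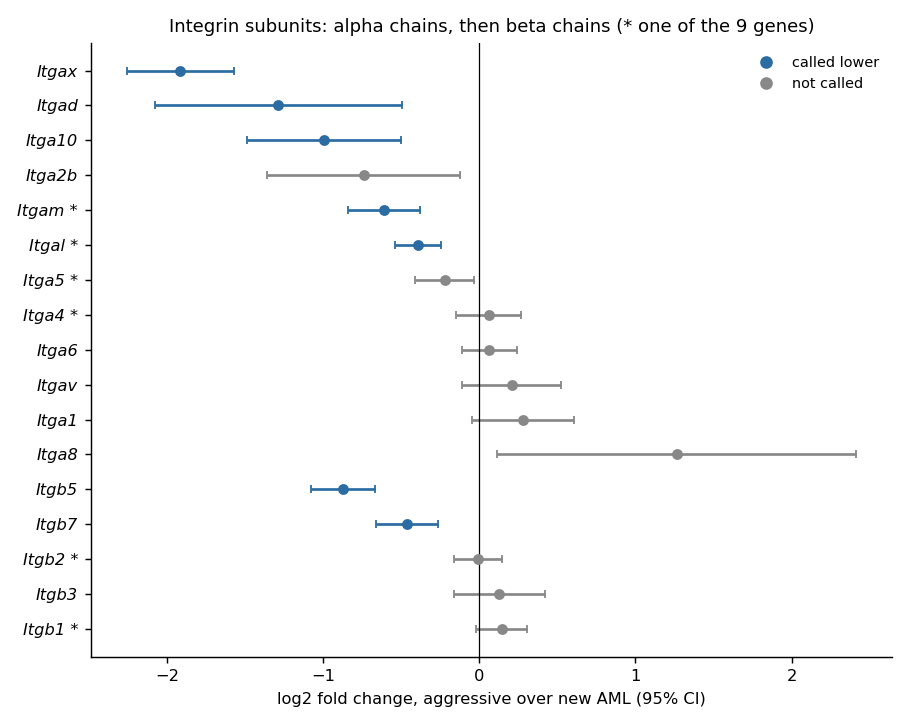
Log2 fold change of every tested integrin subunit gene (aggressive over new AML, points with 95% intervals), coloured by call. All 7 called subunits lie below 0, from Itgal at -0.39 to Itgax at -1.91, and none was called above 0 in this fit.

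Selplg encodes PSGL-1, the main ligand for P-selectin on leukocytes. It had 507.9, 542, 522 and 527 CPM in new AML and 464, 385, 507.2 and 432 CPM in aggressive AML. The groups did not overlap, but aggressive AML replicate 3 came within 1 CPM of new AML replicate 1. Selplg had a log2 fold change of -0.23 (95% interval -0.40 to -0.06), and its edgeR p was 0.0123 before and 0.0606 after adjustment. It passed the threshold when aggressive AML replicate 3 was left out (adjusted p = 0.0157) and in limma (adjusted p = 0.0391).

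Selectins bind Selplg and Cd44 only when these proteins carry certain sugars. Several genes listed for selectin ligands and their sugars were lower, and the effect on the sugars themselves was not tested. Fut7 encodes the fucosyltransferase that completes the sialyl Lewis X group. It had 101, 104, 94.9 and 108 CPM in new AML and 54.6, 53.3, 34.3 and 55.1 CPM in aggressive AML. All aggressive AML libraries lay far under new AML, and replicate 3 was lowest. The log2 fold change of Fut7 was -1.05 (SE 0.12, edgeR adjusted p = 4.25e-05).

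C1galt1c1 encodes Cosmc, the chaperone needed to extend O-linked sugars. Its level went from 80.8 ± 7.17 to 42.9 ± 9.11 CPM (log2 fold change -0.91, edgeR adjusted p = 0.000215). Gcnt1 encodes the enzyme that branches O-linked sugars into the core-2 form carried by PSGL-1. It went from 60.9 ± 6.43 to 43.9 ± 6.30 CPM (log2 fold change -0.47, edgeR adjusted p = 0.0101). The sialyltransferase gene St3gal2 went from 47.9 ± 7.22 to 26.5 ± 2.33 CPM, a log2 fold change of -0.85 (edgeR adjusted p = 0.000192). St3gal1, of the same family, had a log2 fold change of -0.71 (edgeR adjusted p = 0.00740).

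Of 30 listed genes for selectin ligands and their sugars, 24 were tested. Among these, 8 were called lower and 4 higher (against 10.2% and 8.15% of all tested genes), with a median log2 fold change of -0.06. St3gal4 and the tyrosine sulfotransferase gene Tpst2 were also called lower, with log2 fold changes of -0.35 and -0.47 (edgeR adjusted p = 0.0178 and 0.00336). The genes called higher were the carrier genes Cd24a and Glg1 and the GDP-fucose pathway genes Fuk and Gmds. Spn, which encodes the sialomucin CD43, was not called, with 562 ± 27.3 and 517 ± 29.5 CPM. The list thus held changes in both directions.

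**Figure D5:**
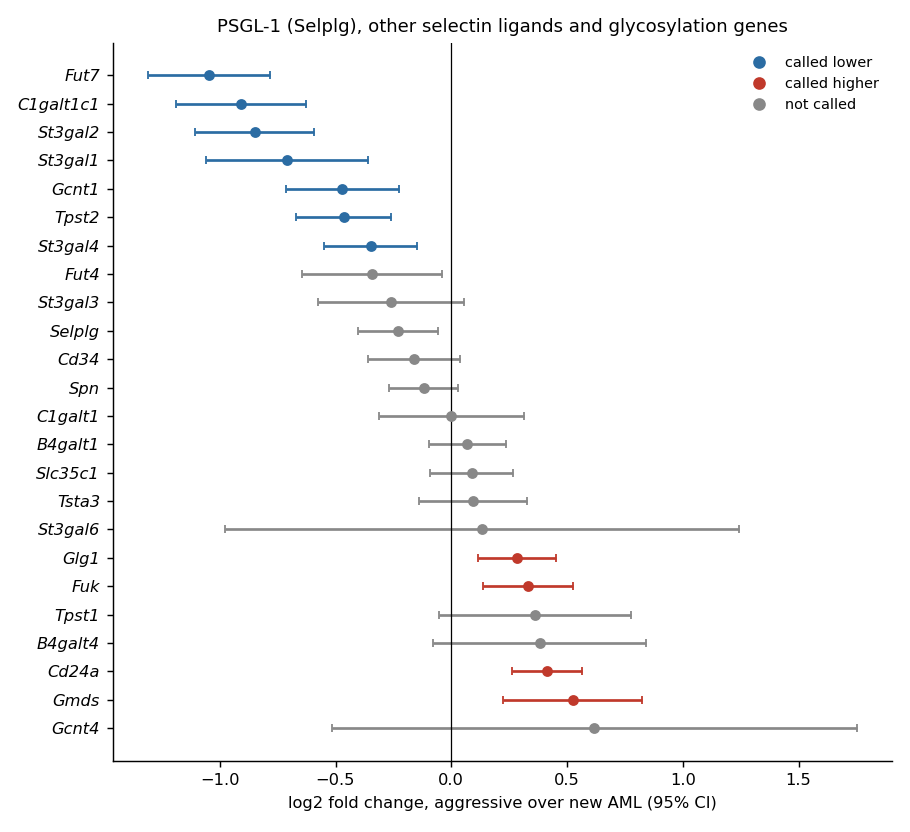
Log2 fold change (aggressive over new AML, points with 95% intervals) of Selplg and 23 of the 24 tested genes for selectin ligands and their sugars, coloured by call. Fut7 lies lowest at -1.05, Selplg was not called at -0.23, and the 4 genes called higher are Glg1, Fuk, Cd24a and Gmds.

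Cd44 is a receptor for hyaluronan and, with suitable sugars, for E-selectin. It had 374, 394, 365 and 401 CPM in new AML and 364, 356, 416 and 355 CPM in aggressive AML. The highest and the lowest libraries both belonged to aggressive AML, where replicate 3 stood above the other replicates. Cd44 had a log2 fold change of -0.04 (95% interval -0.20 to 0.11, edgeR adjusted p = 0.735). The interval bounds a fall at 0.20 and a rise at 0.11 on the log2 scale. Gene counts do not separate the splice forms of Cd44.

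Of 26 listed partners and cleaving enzymes of Cd44, 16 were tested. Among these, 5 were called lower and 1 higher (against 10.2% and 8.15% of all tested genes). Ezr encodes ezrin, which ties the tail of Cd44 to actin, and went from 202 ± 24.9 to 268 ± 36.9 CPM (log2 fold change 0.40, edgeR adjusted p = 0.0141, and 0.0516 without new AML replicate 4). Msn encodes the related moesin and was not called, with 624 ± 12.7 and 652 ± 50.02 CPM. Slc9a3r1, which encodes a scaffold that binds ezrin, went from 120.2 ± 5.28 to 87.5 ± 11.6 CPM (log2 fold change -0.46, edgeR adjusted p = 0.00301). Transcripts of these linked proteins were therefore called in opposite directions.

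Mmp9, a gelatinase that can dock on Cd44, went from 6.71 ± 2.55 to 0.585 ± 0.419 CPM (log2 fold change -3.45, edgeR adjusted p = 7.1e-05). Cd74, a chaperone of MHC class II that can pair with Cd44, went from 11.8 ± 4.18 to 1.13 ± 0.886 CPM (log2 fold change -3.38, edgeR adjusted p = 5.18e-05). Both were low, these sizes rest on few counts in aggressive AML, and limma on log2(CPM + 1) gave -2.26 for Mmp9 and -2.63 for Cd74. The sheddase genes Adam10 and Adam17, whose enzymes can cut Cd44 from the surface, had log2 fold changes of 0.05 and -0.07 and were not called. Nf2 and Ank1 were the other genes called lower.

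Icam1 encodes the ligand of LFA-1 and Mac-1 and was the least abundant member in CPM and in RPKM. It had 27.9, 27.6, 36.4 and 26.2 CPM in new AML and 25.1, 26.6, 17.2 and 18.7 CPM in aggressive AML. The groups overlapped, since aggressive AML replicate 2 lay above new AML replicate 4, and new AML replicate 3 stood apart at the top. Its log2 fold change was -0.43 (SE 0.15, 95% interval -0.76 to -0.10), with an edgeR p of 0.0137 before and 0.0647 after adjustment. Without aggressive AML replicate 2 the edgeR adjusted p was 0.0397. Between 133 and 326 reads per library were counted for Icam1, and an exon of Gm47079 overlaps it on the opposite strand.

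Icam2, a second ligand of LFA-1, went the other way, from 102 ± 6.04 to 122 ± 7.40 CPM (log2 fold change 0.26, edgeR adjusted p = 0.0301). The groups did not overlap, but in 5 of the 8 fits without 1 library (without new AML replicate 1, 2 or 4, or aggressive AML replicate 1 or 2) the adjusted p was 0.0530 to 0.115. The 95% intervals of Icam1 (-0.76 to -0.10) and Icam2 (0.10 to 0.43) lay on opposite sides of 0, but only Icam2 passed the adjusted test.

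Ligands of the beta1 integrins are made largely by stromal and endothelial cells. Vcam1, the ligand of VLA-4, had 3.03 ± 2.118 CPM in new AML and 0.986 ± 0.644 CPM in aggressive AML and was not called (log2 fold change -1.59, edgeR adjusted p = 0.0730, and 0.0238 without new AML replicate 1). Vcam1 was called lower in 2 of the 13 other fits, that one and DESeq2. In limma on log2(CPM + 1) its log2 fold change was -0.92. Fn1 encodes fibronectin, the ligand of VLA-5, and had 27.1, 65.0, 26.3 and 121 CPM in new AML against 11.1, 14.4, 15.3 and 11.95 CPM in aggressive AML. The new AML values were widely spread, with replicates 2 and 4 highest, and all lay above aggressive AML. The log2 fold change of Fn1 was -2.18 (SE 0.39, edgeR adjusted p = 0.00129), and it was -1.58 without new AML replicate 4 (adjusted p = 0.00176).

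Spp1, which encodes the integrin ligand osteopontin, went from 25.8 ± 10.3 to 46.2 ± 14.3 CPM (log2 fold change 0.84, edgeR adjusted p = 0.0254). This call was lost without new AML replicate 1, 2 or 4 or aggressive AML replicate 2 or 3 (adjusted p 0.0509 to 0.0855) and in DESeq2 (0.0721). Of 20 listed counter-receptors and ligands, 8 were tested, 4 were called higher and 1, Fn1, lower (against 8.15% and 10.2% of all tested genes). The other genes called higher were F11r and Jam3 of the junctional adhesion family, each under 5 CPM. The count of 5 calls fell to 3 without new AML replicate 2 or 4 or aggressive AML replicate 1 or 3, and to 2 without aggressive AML replicate 2.

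Integrins bind firmly only after talin and kindlin attach to the beta tail, a step that Rap1 controls in leukocytes. Tln1, the main talin gene, went from 1185 ± 102 to 1001 ± 34.4 CPM (log2 fold change -0.24, edgeR adjusted p = 0.0320). That call was lost in 6 of the 8 fits without 1 library, all but those without new AML replicate 3 or aggressive AML replicate 4, with adjusted p of 0.0688 to 0.105. Fermt3, the kindlin of blood cells, had a log2 fold change of -0.07 (399 ± 16.5 and 379 ± 20.8 CPM) and Rap1b one of -0.02 (200.04 ± 4.90 and 197 ± 7.70 CPM). Neither was called, and that of Rap1b was 0.00024 without aggressive AML replicate 4.

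Of 46 listed genes for integrin activation and its link to actin, 35 were tested. Among these, 13 were called lower and 3 higher (against 10.2% and 8.15% of all tested genes), with a median log2 fold change of -0.11. Fgr, a Src family kinase of myeloid cells that acts after beta2 integrins bind, had a log2 fold change of -1.17 (6.61 ± 2.86 and 2.93 ± 0.628 CPM, edgeR adjusted p = 0.0132, and 0.0546 without new AML replicate 4). Lyn, of the same family and named after its values were seen, had a log2 fold change of -0.35 (174 ± 13.7 and 137 ± 8.31 CPM, edgeR adjusted p = 0.00695). Fgr and Lyn were thus both called lower.

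Parvb, which encodes a parvin that joins integrin-linked kinase to actin, went from 13.7 ± 3.01 to 3.74 ± 1.14 CPM (log2 fold change -1.88, edgeR adjusted p = 5.39e-05). Rasgrp4, an exchange factor for Ras proteins in myeloid cells, went from 40.98 ± 6.87 to 21.2 ± 3.48 CPM (log2 fold change -0.95, edgeR adjusted p = 0.000336). The 3 genes of the list called higher were Tln2, Vcl and Rap1gap. They encode a second talin, the talin partner vinculin and a protein that switches Rap1 off, with log2 fold changes of 0.80, 0.59 and 0.83.

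Tetraspanins and other membrane proteins that sit beside integrins were mostly higher among those called. Of 18 listed, 15 were tested, and 7 were called higher and 1 lower (against 8.15% and 10.2% of all tested genes). The median log2 fold change of the 15 was 0.22. Plaur encodes the urokinase receptor, which binds beta1 and beta2 integrins, and had 31.6, 32.9, 31.1 and 33.6 CPM in new AML and 50.8, 60.0, 42.8 and 47.8 CPM in aggressive AML. All aggressive AML values were above new AML, and the log2 fold change was 0.64 (edgeR adjusted p = 0.000959). Cd63 had a log2 fold change of 0.67 (edgeR adjusted p = 0.0146, and 0.0519 without new AML replicate 2). Slc3a2, the heavy chain CD98 that binds beta1 tails, had one of 0.52 (edgeR adjusted p = 0.0141, and 0.0525 and 0.0517 without new AML replicate 4 or aggressive AML replicate 2).

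Cd9 had a log2 fold change of 0.51 (edgeR adjusted p = 0.0294), lost without new AML replicate 1, 2 or 3 or aggressive AML replicate 3 (0.0545 to 0.0823). The remaining tetraspanin genes called higher were Cd53, Cd81 and Tspan4, and Tspan14 was called lower. The count of 8 calls fell to 5 without new AML replicate 2 or without aggressive AML replicate 2.

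Per exon length, Selplg had the highest level of the members, 282.8 ± 7.51 RPKM in new AML and 241 ± 27.8 RPKM in aggressive AML. In new AML it was followed by Itgam (100.4 ± 18.3), Itgb2 (91.0 ± 7.20), Cd44 (67.8 ± 2.95), Itgal (55.6 ± 2.54), Itgb1 (48.5 ± 3.28), Itga4 (31.2 ± 2.24), Itga5 (18.1 ± 1.58) and Icam1 (11.6 ± 1.82 RPKM). Itgam and Itgb2 overlapped in new AML, as their libraries ranged from 79.8 to 117.5 and from 80.8 to 97.1 RPKM, and no other neighbours in that order overlapped. In aggressive AML the order was Selplg, Itgb2 (90.6 ± 1.57), Cd44 (65.9 ± 5.14), Itgam (65.8 ± 4.11), Itgb1 (53.5 ± 3.39), Itgal (42.3 ± 2.06), Itga4 (32.5 ± 4.88), Itga5 (15.5 ± 0.984) and Icam1 (8.64 ± 1.83 RPKM). Cd44 and Itgam overlapped there, while Itgb2 stood above Itgam and Itgb1 above Itgal in every library.

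Most of the called neutrophil and macrophage markers were lower, as was Itgam. Of 14 neutrophil markers, all tested, 8 were called lower and 1 higher (against 10.2% and 8.15% of all tested genes). Padi4 was the gene called higher (log2 fold change 0.96), and 5 were not called. Mmp9, given above with the partners of Cd44, was among the markers called lower. The summed level of the 14 markers was 376 to 556 CPM per new AML library and 233 to 289.9 CPM per aggressive AML library. S100a8, the most abundant, went from 117 ± 21.02 to 64.7 ± 14.9 CPM. Within new AML it was highest in replicate 3 (137 CPM), where Itgam was lowest. The macrophage list had 4 of 11 genes tested, 2 called lower, and a summed level of 82.8 to 148 CPM in new AML and 56.1 to 90.9 CPM in aggressive AML. Vcam1, given above as a ligand, is also on this list and was not called. Its leading gene Adgre1 had 71.0, 99.4, 59.9 and 102 CPM in new AML and 44.9, 36.9, 55.5 and 50.2 CPM in aggressive AML, with new AML replicates 2 and 4 highest, as in Itgam and Fn1. C1qc did not pass the filter, and C1qa and C1qb were not analysed here.

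Of 14 genes of myeloid leukemia and progenitors, led by Mpo, 5 were called higher and 3 lower (against 8.15% and 10.2% of all tested genes). The sum of the 14 genes was 7247 to 7929 CPM in new AML and 7393 to 9357 CPM in aggressive AML. Meis1, Kit, Elane, Ctsg and Cd33 were called higher, and Hoxa10, Csf1r and Csf3r were called lower. Cd34 was not called (log2 fold change -0.16). Csf1r, the receptor for macrophage colony-stimulating factor, went from 166 ± 28.4 to 51.2 ± 6.42 CPM, and the progenitor receptor Kit from 105.5 ± 18.3 to 165 ± 17.5 CPM. The part of cell maturity in the Itgam and Itgax values was not tested.

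Lists for cells other than the sorted GFP+ cells had few tested genes. The shares over all tested genes were 10.2% called lower and 8.15% called higher. For T cells, 4 of 12 genes were tested, with 2 called higher and sums of 68.9 to 98.5 CPM in new AML and 58.1 to 109.6 CPM in aggressive AML, led by Cd28. Cd3d, Cd3e, Cd3g, Cd8a, Ms4a1 and Ncr1 were not analysed here. For B cells, 3 of 10 were tested, 1 was called lower, and the sums were 39.8 to 44.4 and 32.0 to 35.8 CPM, led by Cd79b. For NK cells, 2 of 10 were tested, 1 was called higher, and the sums were 14.99 to 27.8 and 25.8 to 33.0 CPM, led by Nkg7. Erythroid genes had 8 of 13 tested, 3 called lower, and sums of 32.2 to 116 CPM in new AML and 10.8 to 55.4 CPM in aggressive AML, led by Hbb-bs. Dendritic cell genes had 4 of 9 tested and 3 called lower, with sums of 638 to 803 and 691 to 868 CPM that were mostly Flt3, a gene that leukemia cells also express. Itgax, given above with the integrins, was among the 3 called lower. No gene was called among the 3 of 10 megakaryocyte markers tested, led by the integrin gene Itgb3 (sums 48.5 to 75.6 and 50.9 to 79.1 CPM). None was called among the 4 of 12 endothelial markers tested, led by Pecam1 (sums 357 to 422 and 327 to 357 CPM), or for the 1 of 12 stromal markers tested, Pdgfrb (12.2 to 24.9 and 11.9 to 17.4 CPM). The part of these cells in the values of the members was not tested.

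The genes most like Itgal across the 8 libraries, by Pearson's r of log2 CPM, were Snx10 (0.987), Itgb5 (0.986), Rogdi (0.983), Chd3 (0.982) and Eif4e3 (0.982). All 5 were called lower in aggressive AML. The groups lie apart in Itgal, so these correlations describe mainly that separation over the same 8 libraries.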

How the data were processed

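RNA of sorted MLL-AF9 cells was sequenced in 4 new AML and 4 aggressive AML libraries. The authors purified mRNA on poly-T beads, aligned read pairs to mm10 (HISAT2), summed reads by gene (Rsubread) and dropped genes under 1 CPM. Annotation and strand setting are not given in the sources used here, so overlapping genes are uncertain. Despite its name, the deposited file holds raw read counts, as its whole numbers and unequal totals show.

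The 12494 genes that reached 1 CPM in 4 or more libraries were compared by the quasi-likelihood test of edgeR 4.0.16 (R 4.3.3) with TMM scaling, two-sided p-values and Benjamini-Hochberg adjustment. RPKM used the union of GENCODE exons. The alternatives were RLE scaling, DESeq2 1.42.0, limma 3.58.1 on log2(CPM + 1), no filter, a replicate block and leaving out each library. The edgeR step was tested on simulated counts of 12494 genes. It called 52 of 100 genes with a true absolute log2 fold change of 0.5 and 80 of 100 at 1. The same run gave 13 false calls.

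The members and gene lists were chosen with earlier results of these data known. Of each list, up to 4 called genes with the largest fold change (at least 5 CPM in the higher group) were named, beside fixed partners and the most abundant marker; other genes were named after their values were seen. Some genes that these rules select are not reported here. Before TMM scaling, a read was worth 0.103 to 0.128 CPM. All 12 within-group pairs of libraries differed beyond sampling noise.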

Additional observations from a re-analysis of the deposited data

Results flagged for a closer look

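In 5 of 82 groups of 4 libraries screened, a library lay apart from the other libraries of its group by Dixon's test, where chance alone would give about 4.1 (1 in 20 groups). Cd44 in aggressive AML replicate 3 stood at 416 CPM, against 355 to 364 CPM in the other replicates. Icam1 in new AML replicate 3 stood at 36.4 CPM, against 26.2 to 27.9 CPM. Fut7 in aggressive AML replicate 3 stood at 34.3 CPM, against 53.3 to 55.1 CPM. Parvb in aggressive AML replicate 3 stood at 5.44 CPM, against 3.06 to 3.25 CPM. Slc9a3r1 in new AML replicate 3 stood at 112 CPM, against 122.5 to 123.2 CPM. Of these 5 cases, 3 were in aggressive AML replicate 3, and the cause was not tested.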

How the results depend on the processing

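The number of called genes was 2296, 2295 with RLE scaling, 2538 in DESeq2, 2321 in limma, 2355 without the filter, and 1466 (without new AML replicate 2) to 2324 when 1 library was left out. The members called numbered 2 or 3 in every fit, and Itgal and Itgam were called in all 13 alternatives. When 1 library was left out, the log2 fold change of Itgam was -0.71 to -0.53 and that of Itgal -0.43 to -0.36. The called counter-receptors and ligands then ranged from 2 to 5 and the called tetraspanins and lateral partners from 5 to 9. The ratio of summed alpha subunits to Itgb2, added after the data were seen, changed by -0.68 to -0.52. Signs turned only near 0, for Itga4 (-0.0060 without aggressive AML replicate 3, range -0.0060 to 0.14), for Itgb2 (0.024, 0.012 and 0.010 without new AML replicate 3, new AML replicate 4 or aggressive AML replicate 4, range -0.062 to 0.024) and for Rap1b (0.00024 without aggressive AML replicate 4, range -0.040 to 0.00024). The cause was not tested.

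With the replicate number as a block, 2367 genes and 2 members were called, and no call of a member changed. Deviations of same-numbered libraries correlated at 0.129, -0.018, -0.057 and 0.171, and 2 of the 4 numbers matched best with themselves, so the numbers were not taken as pairs.

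Depth limits Itgad, Mmp9, Cd74 and Vcam1, which rest on few counts, and their fold changes are smaller in limma because 1 is added to each CPM. Differences as small as those of Itgb2 or Cd44 are bounded by their intervals and not shown to be 0.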
